A study of Mus musculus with 18 samples.

Results

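The genes described here encode the constitutive proteasome and the proteins that activate, inhibit or assemble it. They were taken from the 21954 genes of the count table by name, as every symbol that begins with Psma, Psmb, Psmc, Psmd, Psme, Psmf or Psmg and a number, without the interferon-inducible catalytic subunits Psmb8, Psmb9 and Psmb10 and without pseudogenes. The rule gave 47 genes, of which 46 passed the filter on low counts. They comprise 14 subunits of the 20S core (7 alpha and 7 beta), 17 subunits of the 19S regulator (9 of its base and 8 of its lid), 5 Psme activators, the inhibitor Psmf1, 4 core assembly chaperones (Psmg1 to Psmg4), 3 base assembly chaperones (Psmd5, Psmd9 and Psmd10) and 3 further genes. Of these last, Psmb11 is the thymic beta subunit and stood at 0 in every library. Psma8 is the testis alpha subunit and stayed at or below 3.71 CPM, the read count scaled to library size. Psmc3ip, which carries the name of a proteasome subunit but acts in meiotic recombination, stayed at or below 7.27 CPM. The rule used no measured value, but it was set with earlier results of these data known.

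Bone marrow derived macrophages of wild-type mice (WT) and of mice labelled as macrophage-specific L13a knockouts (KO) were compared without treatment, after IFN and after IL4, which gave 6 groups of 3 libraries each and 18 in all. Which IFN was used, at what dose and for how long is not stated in the labels, nor are the strain, age and sex of the mice or the promoter that drives the knockout. Replicate libraries are numbered, but their origin in different mice or dishes is not stated. Each WT group held libraries with and libraries without Y-linked transcripts, which therefore came from different mice. For the KO libraries, and for WT libraries that are alike in this respect, the p-values may measure no more than technical spread. In RNA of bulk cultures, fewer cells of a type and less RNA per cell cannot be told apart.

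The proteasome degrades proteins that carry chains of ubiquitin. Its 20S core is a barrel of 4 stacked rings: the outer rings of alpha subunits form the gate, and the inner rings of beta subunits hold the proteolytic sites, which belong to Psmb5 (chymotrypsin-like), Psmb6 (caspase-like) and Psmb7 (trypsin-like). The 19S regulator caps the barrel, and its lid removes ubiquitin while the ATPases of its base unfold the substrate and open the gate. In cells exposed to interferon, Psmb8, Psmb9 and Psmb10 can take the places of Psmb5, Psmb6 and Psmb7, and the ring of Psme1 and Psme2 (PA28) can cap the core in place of 19S. Such immunoproteasomes are known for making peptides that MHC class I molecules present. Psme3 forms a related ring in the nucleus, Psme4 (PA200) is a large single-chain activator, and Psmf1 (PI31) binds the core and inhibits it in vitro.

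The libraries held 18098711 to 28477342 expected counts, and the 47 genes took 0.357% to 0.608% of them. Transcripts of the targeted gene, Rpl13a, were present in all KO libraries, at 156 to 606 CPM against 437 to 867 in WT. Its estimates were lower in KO (log2 -1.47 untreated, -0.90 after IFN and -0.95 after IL4), but edgeR called it in no genotype comparison. The edgeR adjusted p was 0.256 untreated and 0.772 after IFN. Lyz2, a macrophage gene, stood at 10677 to 12108 CPM in untreated WT and at or below 7.12 CPM in KO libraries, so that loss of L13a and a change at Lyz2 cannot be told apart in any genotype comparison. The treatments were visible in their known target genes: Irf1 and Cxcl9 rose after IFN in both genotypes, and all 4 IL4 markers (Arg1, Chil3, Retnla and Mrc1) rose after IL4. Summed markers of T and B cells stayed at or below 1.7 CPM and those of neutrophils at or below 2.7 CPM. Fibroblast markers were present: their sum ranged from 32.6 to 826 CPM, with Col1a1 up to 323 CPM, Col1a2 up to 205 CPM and Fn1 up to 336 CPM, while Dcn stayed at or below 0.594 CPM and Lum at or below 0.104 CPM. Transcripts of Y-linked genes were present in 5 WT libraries (1, 4, 5, 7 and 8) and near 0 in the others. All KO libraries were among these others, so genotype and the presence of Y-linked transcripts are partly confounded. Of the untreated WT libraries, only library 1 held them. The untreated WT libraries 2 and 3 were closer to each other than any other pair of replicates.

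In untreated WT macrophages the core genes were expressed within a narrow range. Levels are compared between genes as TPM, a unit that also accounts for transcript length. The 14 core genes ranged from 133 ± 15.7 TPM (SD, n = 3) for Psma5 to 291 ± 0.996 TPM for Psmb6, a ratio of 2.19 between the means. The 17 genes of 19S ranged more widely, from 48.2 ± 1.74 TPM for Psmd11 to 307 ± 24.7 TPM for Psmd8, both lid subunits, a ratio of 6.38. The level of the PA28 genes was within the range of the core genes, at 245 ± 14.7 TPM for Psme1 and 242 ± 35.5 TPM for Psme2. The other activators and the inhibitor were lower: Psme3 stood at 64.1 ± 4.56 TPM, Psmf1 at 29.3 ± 2.49 TPM and Psme4 at 21.3 ± 0.972 TPM. Psme1 and Psme2 did not differ from each other beyond their spread. The chaperone Psmg4 was at 66.5 ± 2.23 TPM, above the other 3 core chaperones, which lay between 23.1 TPM (Psmg1) and 27.2 TPM (Psmg2).

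IFN raised the PA28 genes and part of the 20S core in both genotypes, and 1 or 2 genes of the 19S regulator. In WT, 12 of the 46 tested genes rose and none fell (edgeR quasi-likelihood test, Benjamini-Hochberg adjusted p under 0.05 over all 12514 genes tested), against a background of 18.6% of all genes called in either direction and 11.1% called higher. In KO, 16 of 46 rose and none fell, against 21.6% of all genes called and 12.6% called higher. The median log2 fold change was 0.28 in WT and 0.35 in KO, and the medians over all genes tested were -0.02 and -0.03. The IFN libraries all stood above the untreated ones for 18 of the 46 genes in WT, where 18.7% of all genes did so, and for 24 in KO, where the share was 18.8%. These 2 comparisons share no library. The genes that rose in both were Psma1, Psma3, Psma4, Psma5, Psma7, Psmb2, Psme1, Psme2, Psme4, Psmf1 and Psmg4, which makes 11 genes, 91.7% of the WT list and 68.8% of the KO list. Psmd3 passed the threshold in WT and not in KO, and Psma2, Psmb3, Psmc2, Psmd8 and Psme2b in KO and not in WT. None of these 6 genes passed the test of the difference between the genotypes' responses (edgeR, adjusted p = 1 for Psma2, Psmb3, Psmc2, Psmd3, Psmd8 and Psme2b). Without untreated WT library 1, the low-level Psma8 was called lower after IFN in WT (-1.48, edgeR adjusted p = 0.00827). Markers of other cells moved with IFN in WT as well. Summed fibroblast markers stood at 681, 700.2 and 688 CPM untreated and 153, 93.1 and 146 CPM after IFN, with 3 of 8 tested markers lower, and at 194, 84.7 and 309 and 32.6, 199 and 603 CPM in KO, which overlapped. Summed markers of dividing cells stood at 1161, 1512 and 1480.1 and 1530.5, 1898 and 1638 CPM in WT and overlapped in KO, with 1 of 9 called higher in each genotype and 1 lower in KO. Of 4 tested bone-forming markers 3 were called lower in WT and 1 in KO, with sums of 20.3, 54.8 and 46.0 CPM untreated and 13.7, 9.30 and 5.84 CPM after IFN in WT. Their part in the result was not tested.

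**Figure D1:**
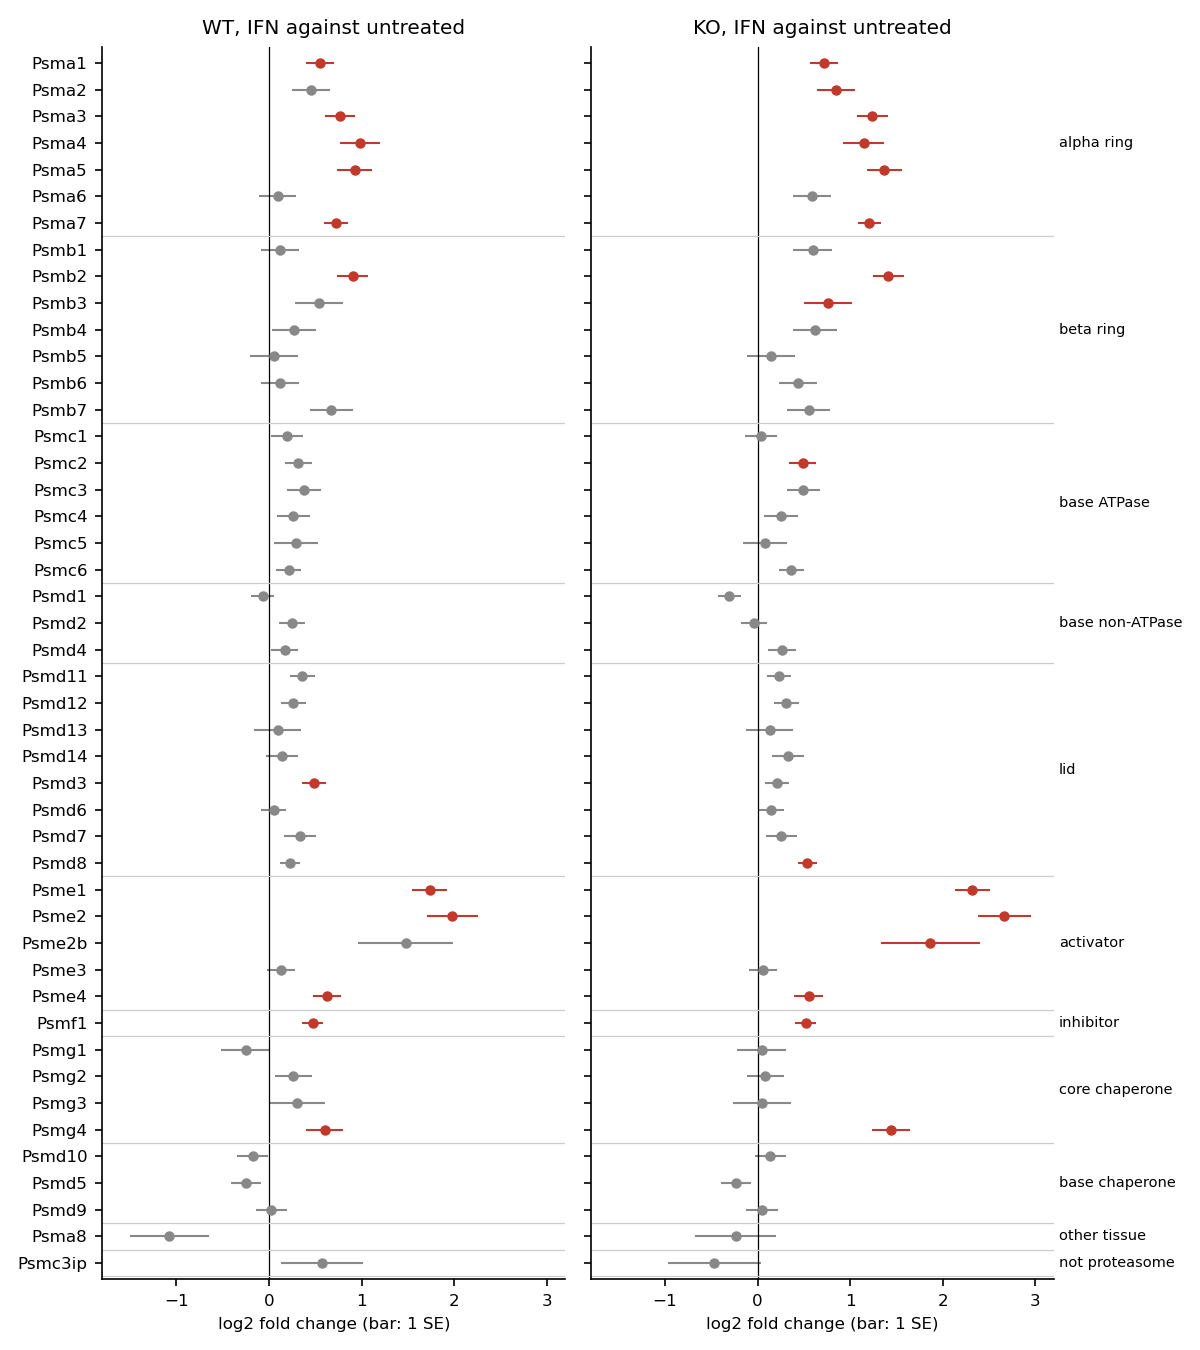
Log2 fold change after IFN for each of the 46 tested genes, ordered by class, in WT (left) and KO (right); points are edgeR estimates, bars are ±1 standard error, and red points passed an adjusted p under 0.05. The points farthest to the right are those of Psme1, Psme2 and the low-level Psme2b, while most 19S genes lie close to 0.

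Psme1 and Psme2, which together form PA28, had the 2 highest responses to IFN among the 11 genes that rose in both genotypes. In WT, Psme1 (mm10 chr14:55578123-55581529, plus strand) stood at 120.3, 150.2 and 145 CPM in the untreated libraries and at 342, 409.8 and 630.2 CPM after IFN. In KO it stood at 101, 116 and 108 CPM untreated and at 525, 550.2 and 541 CPM after IFN. The groups did not overlap in either genotype, and the IFN libraries of WT were more spread than those of KO, with library 6 the highest. The log2 fold change was 1.73 in WT (SE 0.186, edgeR adjusted p = 6.62e-06), a 3.33-fold rise, and 2.32 in KO (SE 0.19, adjusted p = 2.94e-07), a 4.98-fold rise.

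Psme2 (chr14:55587441-55591113, minus strand), the partner subunit on the same chromosome, separated the treatments in the same way. It stood at 88.0, 125 and 133 CPM in untreated WT and at 286, 416 and 659 CPM after IFN. In KO the values were 70.5, 91.6 and 107 CPM untreated and 523, 585 and 594 CPM after IFN. Untreated and IFN libraries were apart in both genotypes, and library 4 was again the lowest of the WT IFN group. Psme2 rose 3.94-fold in WT (log2 1.98, SE 0.278, edgeR adjusted p = 9.82e-05) and 6.33-fold in KO (log2 2.66, SE 0.285, adjusted p = 5.74e-06). By log2 fold change it ranked 417 of 12514 genes in WT and 306 in KO, and Psme1 ranked 487 and 370. Psme2b, an intronless copy, shares 68.7% of its 50-base stretches with Psme2, so reads of the pair could be assigned to either. Its exons also overlap those of 9930111J21Rik1 on the same strand, whose reads could be counted there too. Psme2b reached no more than 10.8 CPM in any library, and rose in KO (log2 1.87, edgeR adjusted p = 0.0205) but did not pass in WT (1.48, adjusted p = 0.058). The KO call was lost without untreated KO library 2 or 3 or KO IFN library 5, and Psme2b was called in WT without untreated WT library 1 (2.00, edgeR adjusted p = 0.0339).

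The 250 bases before and 50 after the start site of 4 genes are shown because these genes had different responses to IFN: Psme1, Psme2 and Psmg4, which rose in both genotypes, and Psme3, which passed in neither. The sequences are those of RefSeq on GRCm38.p6, which is the mm10 assembly, read 5′ to 3′ on the gene's strand. Capitals mark matches, on either strand, to the letters of an interferon-stimulated response element (ISRE), which are GAAA followed by any 2 bases and again GAAA.
Psme1 promoter (chr14:55578244-55578543, plus strand): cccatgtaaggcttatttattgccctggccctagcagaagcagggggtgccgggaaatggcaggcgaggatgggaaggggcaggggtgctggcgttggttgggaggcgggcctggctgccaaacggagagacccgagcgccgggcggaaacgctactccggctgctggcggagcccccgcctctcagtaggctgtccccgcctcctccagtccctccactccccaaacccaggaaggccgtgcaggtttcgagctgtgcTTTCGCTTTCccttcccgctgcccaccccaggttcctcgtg
Psme2 promoter (chr14:55591052-55591351, minus strand): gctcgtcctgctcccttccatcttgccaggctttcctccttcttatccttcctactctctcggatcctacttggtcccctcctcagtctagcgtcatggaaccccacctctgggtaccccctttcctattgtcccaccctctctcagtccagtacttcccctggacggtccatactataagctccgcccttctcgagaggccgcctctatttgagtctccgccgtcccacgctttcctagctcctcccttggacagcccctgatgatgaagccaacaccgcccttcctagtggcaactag
Psmg4 promoter (chr13:34162714-34163013, plus strand): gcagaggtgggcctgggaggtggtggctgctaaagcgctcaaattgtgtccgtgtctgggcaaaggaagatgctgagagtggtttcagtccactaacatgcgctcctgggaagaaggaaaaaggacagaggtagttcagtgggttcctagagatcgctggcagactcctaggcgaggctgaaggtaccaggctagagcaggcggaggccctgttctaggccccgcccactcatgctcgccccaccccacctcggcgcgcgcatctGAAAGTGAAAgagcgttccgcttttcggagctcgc
Psme3 promoter (chr11:101315963-101316262, plus strand): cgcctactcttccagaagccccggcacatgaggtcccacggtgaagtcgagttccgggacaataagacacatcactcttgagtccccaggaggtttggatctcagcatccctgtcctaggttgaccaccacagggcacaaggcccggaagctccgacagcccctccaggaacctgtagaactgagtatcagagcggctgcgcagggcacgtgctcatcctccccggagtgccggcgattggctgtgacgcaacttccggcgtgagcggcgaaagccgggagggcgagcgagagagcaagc
The ISRE letters begin 10 bases after the start site in Psme1, on the minus strand, and 16 bases after it in Psmg4, on the plus strand. They are not in this window of Psme2 or Psme3. Psme2 has another RefSeq start site, not shown, whose window does not hold them either. Promoters were found for 39 of the 47 genes, and 5 of the 39 hold the ISRE letters (Psmb3, Psmd4, Psmd9, Psme1 and Psmg4), against 3.44% of all 32851 promoters of the same length. Psme1, Psmb3 and Psmg4 rose after IFN in KO, and Psmd4 and Psmd9 were called in neither genotype. Of the genes called after IFN for which a promoter was found, 3 of 15 in KO and 2 of 10 in WT hold the ISRE letters, so most do not. TTCNNNGAA, the letters of a gamma-activated site, is in 2 of the 39 (Psmd2 and Psmg1) and in 8.3% of all promoters. TGACNNNGC, the antioxidant response element bound by Nfe2l1 and Nfe2l2, is in 6 of the 39 (Psmb5, Psmb6, Psmc6, Psmd12, Psmd9 and Psme4) and in 12.4% of all. The CCAAT box is in 14 of the 39 and in 37.4% of all. Each motif was searched on both strands. The 39 are counted by gene, with a match in any of a gene's promoters, and the background by promoter, so the shares are not of the same unit. A match says only that these letters are in the window, and no match only that they are not.

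The other activators and the inhibitor had smaller estimates than PA28. Psme4 stood at 64.8, 76.4 and 76.6 CPM in untreated WT and at 115, 108 and 114 CPM after IFN, and at 79.99, 87.0 and 72.4 CPM and 98.4, 146 and 106 CPM in KO. The groups did not overlap in either genotype, although KO library 5 was well above the other 2 KO IFN libraries. Psme4 rose by a log2 fold change of 0.63 in WT (SE 0.153, edgeR adjusted p = 0.00836) and 0.55 in KO (SE 0.153, adjusted p = 0.0166). On log2(TPM + 1) values it did not pass in WT (limma adjusted p = 0.150), and the KO call was lost without untreated KO library 3 or KO IFN library 5.

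Psmf1 had the least spread of these genes. Its values were 34.6, 35.9 and 34.1 CPM in untreated WT and 44.9, 52.5 and 47.9 CPM after IFN, and 30.2, 32.2 and 34.7 CPM and 41.5, 49.96 and 47.8 CPM in KO. Every IFN library stood above every untreated library of either genotype. Psmf1 rose by 0.47 on the log2 scale in WT (SE 0.112, edgeR adjusted p = 0.0071) and by 0.52 in KO (SE 0.113, adjusted p = 0.00342). Psme3, the nuclear relative of PA28, stood at 80.01, 99.95 and 105 CPM in untreated WT and 103, 115 and 92.6 CPM after IFN, and the groups overlapped in both genotypes. Its log2 fold change was 0.13 in WT (95% interval -0.16 to 0.42) and 0.06 in KO (-0.23 to 0.35), with no call in either, and both intervals lie below the estimates for Psme1 and Psme2.

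**Figure D2:**
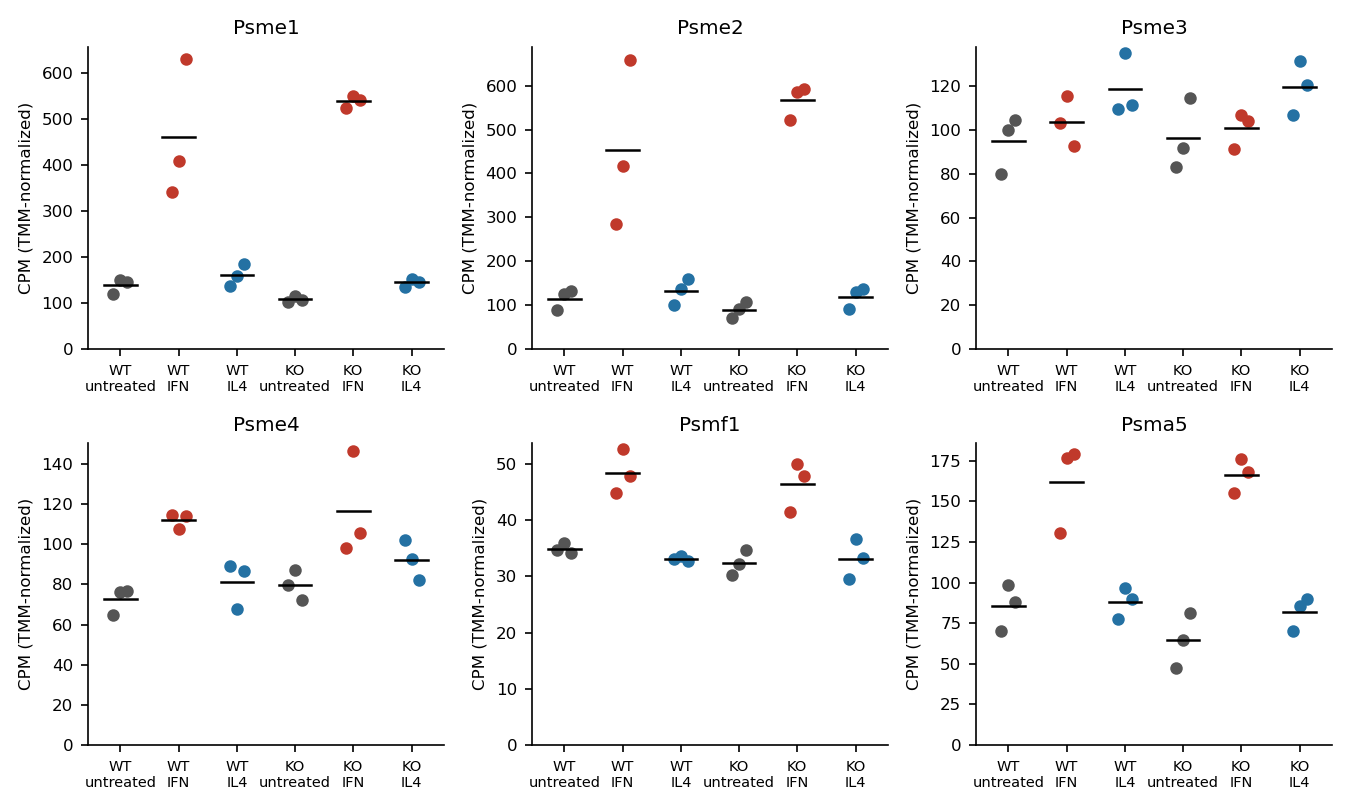
CPM by library for Psme1, Psme2, Psme3, Psme4, Psmf1 and the alpha subunit Psma5; grey, red and blue points are untreated, IFN and IL4 libraries, the black lines are group means, and each panel has its own axis. IFN libraries lie above untreated ones in the panels of Psme1, Psme2, Psme4, Psmf1 and Psma5 and overlap them in the panel of Psme3.

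Within the 20S core, more alpha than beta subunits passed the test after IFN. In WT 5 of 7 alpha and 1 of 7 beta subunits rose, with median log2 fold changes of 0.72 and 0.27. In KO 6 of 7 and 2 of 7 rose, with medians of 1.15 and 0.59. Of all genes 11.1% were called higher in WT and 12.6% in KO, and the WT beta count is near that share. The median SE was larger for the beta genes (0.231 in WT, 0.232 in KO) than for the alpha genes (0.188 and 0.190). In KO 6 of 7 beta genes had an unadjusted p under 0.05 and groups that did not overlap. Of all 12514 genes, 2217 had such a p and a higher estimate, and 18.8% had all IFN libraries above the untreated ones. Without untreated KO library 3, Psmb1, Psmb4 and Psmb7 were called there beside Psmb2 and Psmb3, which makes 5 of 7, and Psma6 was called too. All 14 core genes had an estimate above 0 in both genotypes. The counts of 5 and 1 were not tested against each other.

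Among the alpha subunits, Psma7 had the lowest adjusted p in WT. It stood at 101, 115 and 109 CPM untreated and 149, 184 and 203 CPM after IFN in WT, and at 79.0, 83.8 and 86.9 CPM and 192, 194 and 191 CPM in KO. The groups were far apart in both genotypes, and the untreated KO libraries were the lowest of all. The log2 fold change was 0.72 in WT (SE 0.126, edgeR adjusted p = 0.000678) and 1.21 in KO (SE 0.127, adjusted p = 4.81e-06). Psma5 (chr3:108256926-108279974, plus strand) stood at 70.2, 98.2 and 87.9 CPM and 131, 177 and 179 CPM in WT, and at 47.4, 64.6 and 81.3 CPM and 155, 176 and 168 CPM in KO. Every IFN library was above every untreated one. Psma5 rose by 0.92 in WT (SE 0.188, edgeR adjusted p = 0.00235) and 1.37 in KO (SE 0.19, adjusted p = 7.43e-05). Since 50% of the 50-base stretches of Psma5 also occur in other annotated genes, its count depends on how such reads were shared out.

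Psma3 and Psma4, further alpha subunits, rose as well. Psma3 rose by 0.77 in WT (SE 0.164, edgeR adjusted p = 0.00345) and 1.24 in KO (SE 0.166, adjusted p = 5.23e-05), from 94.2, 133 and 136 to 187, 202 and 228 CPM in WT. Psma4 rose by 0.98 (SE 0.219, adjusted p = 0.00462) and 1.15 (SE 0.22, adjusted p = 0.00135), from 88.1, 122 and 119 to 167, 231 and 251 CPM in WT. The untreated and IFN libraries of these genes did not overlap in either genotype. Psma1 rose by 0.55 in WT (edgeR adjusted p = 0.0188) and 0.72 in KO (adjusted p = 0.00307), and the WT call was lost in 4 of 14 alternative settings, among them without untreated WT library 1, WT IFN library 5 or WT IFN library 6. Psma2 rose in KO alone by this threshold (0.85, edgeR adjusted p = 0.00757), with 0.45 in WT (adjusted p = 0.145). Psma6 passed in neither genotype, at 0.09 (adjusted p = 0.815) and 0.59 (adjusted p = 0.0524).

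The beta subunit with the clearest response was Psmb2, which has no proteolytic site. It stood at 86.2, 116 and 119 CPM untreated and 179, 194 and 229.8 CPM after IFN in WT, and at 59.9, 72.4 and 88.2 CPM and 186, 197 and 205 CPM in KO. The lowest IFN library was above the highest untreated one. Psmb2 (chr4:126677630-126709714, plus strand) rose by 0.91 in WT (SE 0.167, edgeR adjusted p = 0.00111) and 1.41 in KO (SE 0.169, adjusted p = 1.82e-05). In TPM it went from 258 ± 28.5 to 454 ± 12.4 in WT (SD, n = 3), the highest mean of the 14 core genes after IFN. Psmb3 was called in KO (0.76, edgeR adjusted p = 0.0451), and that call was lost in 9 of 14 alternative settings, among them without untreated KO library 1 or 2 and without any 1 of the KO IFN libraries.

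None of the 3 catalytic subunits of the constitutive core passed the test after IFN in either genotype, while their inducible replacements rose. Psmb5 (chr14:54614119-54618022, minus strand) stood at 66.6, 98.9 and 93.8 CPM in untreated WT and 65.2, 87.9 and 116 CPM after IFN, with a log2 fold change of 0.05 (SE 0.261) and of 0.14 in KO (SE 0.262). Psmb6 (chr11:70525367-70527858, plus strand) stood at 101, 111 and 113 CPM and 84.9, 119 and 150.04 CPM, with 0.12 in WT (SE 0.204) and 0.44 in KO (SE 0.204). For both genes the WT groups overlapped. In KO the Psmb6 groups did not overlap, at 80.9, 77.4 and 102 CPM and 110.4, 112 and 129.9 CPM. Psmb7 (chr2:38588036-38644087, minus strand) stood at 70.3, 99.1 and 93.4 CPM and 112, 149 and 157 CPM in WT, which did not overlap, with 0.67 (SE 0.231, edgeR adjusted p = 0.0546) and 0.55 in KO (SE 0.232, adjusted p = 0.105). Psmb7 was called in WT without IFN library 4 (0.79, edgeR adjusted p = 0.046) and in KO without untreated library 3 (0.78, adjusted p = 0.0369). Its KO groups, at 65.6, 73.9 and 109 CPM and 114, 116 and 135 CPM, did not overlap either. Of the 50-base stretches of Psmb5, 54.1% occur in other genes, and 405 exon bases of Psmb7 overlap Nek6 on the opposite strand, whose reads cannot be told apart if the libraries were not directional.

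Psmb8 rose by 2.46 on the log2 scale in WT (SE 0.188, edgeR adjusted p = 1.56e-07) and 2.85 in KO (SE 0.191, adjusted p = 3.2e-08). Psmb9 rose by 2.61 and 3.13, and Psmb10 by 2.52 and 3.07. Summed over each trio, the constitutive catalytic genes went from 641 ± 48.2 TPM (SD, n = 3) to 711 ± 113 TPM in WT, and the inducible genes from 377 ± 14.02 to 2034 ± 288 TPM. The share of the inducible gene in each pair was higher in every IFN library than in any untreated one. Psmb8 made up 53.3, 46.7 and 48.5% of its sum with Psmb5 in untreated WT and 85.7, 84.7 and 83.9% after IFN. Psmb9 made up 15.9, 17.5 and 16.7% of its sum with Psmb6 and then 54.5, 50.5 and 53.0%. Psmb10 made up 46.6, 43.1 and 45.7% of its sum with Psmb7 and then 73.0, 70.5 and 77.0%. In KO the means after IFN were 86.5% for Psmb8, 56.0% for Psmb9 and 80.5% for Psmb10, from 49.8%, 16.5% and 38.8% untreated. These are shares of transcripts, and the protein was not measured. On the opposite strand, 498 exon bases of Psmb8 overlap Gm20496 and 212 of Psmb9 overlap Tap1. Such reads cannot be told apart if the libraries were not directional. Of the 50-base stretches of Psmb8, 11.9% occur in other genes.

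In the 19S regulator 1 of 17 genes rose after IFN in WT and 2 of 17 in KO, where 11.1% and 12.6% of all genes were called higher, so the counts are near or below the background, with medians of 0.25 and 0.25 against 0.54 and 0.74 for the core. None of the 9 base genes passed in WT and 1 passed in KO (Psmc2, an ATPase of the base, 0.49, edgeR adjusted p = 0.0251, a call lost in 6 of 14 alternative settings, among them without untreated KO library 1 and without KO IFN library 5 or 6). The WT call was the lid subunit Psmd3 (0.48, SE 0.13, edgeR adjusted p = 0.015), a call lost without untreated WT library 1 or WT IFN library 5. The other KO call was Psmd8, a lid subunit that is the most abundant 19S transcript by TPM. Psmd8 stood at 227, 219 and 223 CPM untreated and 239, 245 and 300.03 CPM after IFN in WT, and at 199, 179.9 and 207 CPM and 292, 280.5 and 278 CPM in KO. The groups were apart in both genotypes, narrowly in WT. It rose in KO by 0.54 (SE 0.107, edgeR adjusted p = 0.00177), while the WT value was 0.23 (SE 0.107, adjusted p = 0.156).

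Among the core assembly chaperones, Psmg4 alone was called. It stood at 12.9, 14.4 and 15.8 CPM in untreated WT and 14.9, 23.5 and 27.3 CPM after IFN, and at 9.87, 8.77 and 11.6 CPM and 28.8, 27.1 and 26.5 CPM in KO. The WT groups overlapped through library 4, and the KO groups were well apart. Psmg4 rose by 1.44 in KO (SE 0.203, edgeR adjusted p = 8.35e-05) and by 0.60 in WT (SE 0.199, adjusted p = 0.0449), and the WT call was lost in 8 of 14 alternative settings, among them without any 1 of the untreated WT libraries and without WT IFN library 5 or 6. The medians of the 4 core chaperones were 0.28 in WT and 0.07 in KO. None of the 3 base chaperones was called, with medians of -0.18 and 0.05.

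The balance of PA28 and 19S transcripts to core transcripts differed between untreated and IFN libraries. The mean TPM of Psme1 and Psme2 divided by the mean TPM of the 14 core genes was 1.08, 1.08 and 1.12 in untreated WT and 2.39, 2.48 and 3.28 after IFN. In KO the ratios were 1.10, 1.18 and 0.962 and 3.27, 3.60 and 3.21. The same ratio for the 17 genes of 19S was 0.599, 0.525 and 0.538 in untreated WT and 0.503, 0.455 and 0.417 after IFN, and 0.667, 0.685 and 0.604 and 0.407, 0.451 and 0.427 in KO. For both ratios the untreated and IFN libraries did not overlap in either genotype, PA28 lying higher and 19S lower after IFN. After IL4 the ratios of PA28 to the core were 1.10, 1.03 and 1.24 in WT and 1.16, 1.11 and 0.985 in KO, which overlapped the untreated values. Because each ratio is formed within a library, the scaling between libraries does not enter it.

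**Figure D3:**
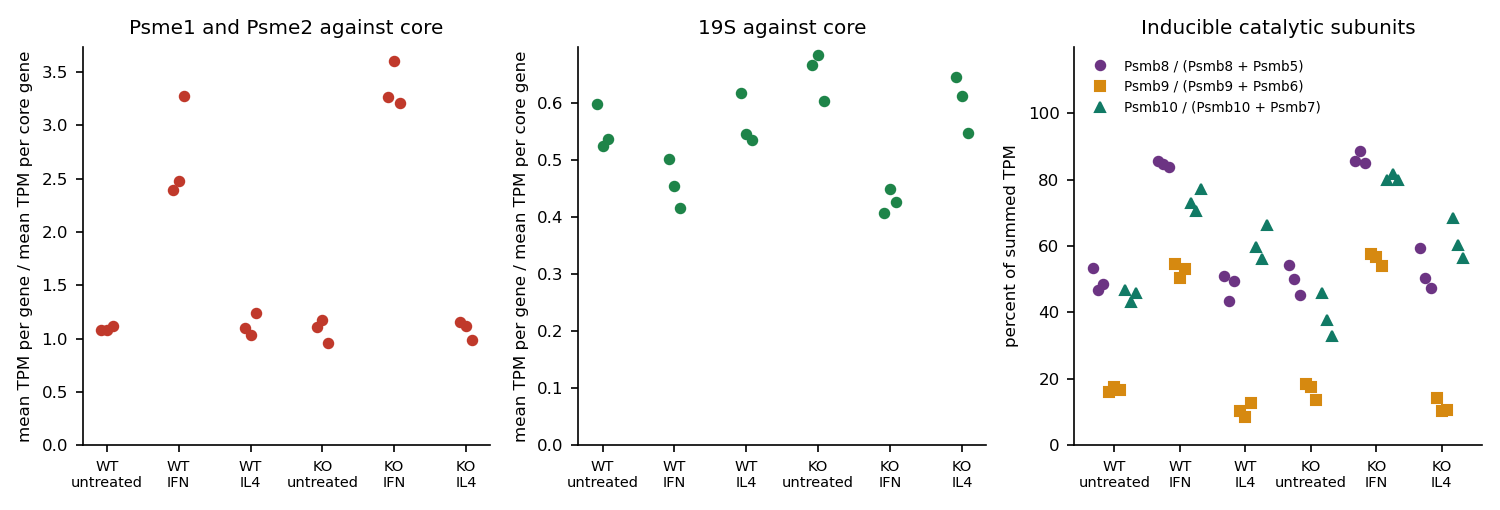
Mean TPM of Psme1 and Psme2 per core gene (left), mean TPM of 19S genes per core gene (middle) and the inducible gene's percent of each catalytic pair (right), for each of the 18 libraries by group. The IFN libraries lie at 2.39 to 3.60 in the left panel, against 0.962 to 1.24 for all other libraries, and at 0.407 to 0.503 in the middle panel, against 0.525 to 0.685.

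The scale on which libraries are compared matters for the genes that moved little. On TPM values tested with limma after adding 1 and taking log2, the median over all genes tested was -0.08 after IFN in WT and -0.31 in KO, against -0.02 and -0.03 with the normalized counts. The share of all called genes that were higher was 59.5% with counts and 50% on TPM in WT, and 58.5% and 21.7% in KO. The median of the 46 genes was 0.27 above that of all genes in WT and 0.29 above it in KO on TPM, against 0.30 and 0.38 with counts. In KO the 19S median was 0.25 with counts and -0.10 on TPM, which is 0.20 above the median of all genes on that scale. In KO the calls of Psmb3, Psmc2, Psmd8, Psme4 and Psmf1 were lost on TPM with either pseudocount. On TPM 12 genes were called higher and none lower in WT, and 11 higher and 2 lower in KO. The lower pair was Psmd1 (-0.79, limma adjusted p = 0.000852) and Psmd2 (-0.41, adjusted p = 0.0116), the large scaffold subunits of the base, whose count-based estimates were -0.31 (edgeR adjusted p = 0.0963) and -0.04 (adjusted p = 0.877). With counts Psmd1 was called lower in KO without KO IFN library 6 (-0.46, edgeR adjusted p = 0.021). The rise of Psma3, Psma4, Psma5, Psma7, Psmb2, Psme1 and Psme2 passed in both genotypes under each of 14 alternative settings, the TPM tests included.

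Other genes of the pathway, of which 32 were tested, answered in part. After IFN 7 rose and 1 fell in WT, and 7 rose and 1 fell in KO. Of all 12514 genes, 11.1% were called higher in WT and 12.6% in KO, and 945 and 1118 genes were called lower. Besides the 3 inducible subunits, Pomp, the chaperone that completes the core and takes up inducible subunits, rose by 1.22 in WT (SE 0.233, edgeR adjusted p = 0.00138) and 1.68 in KO (SE 0.236, adjusted p = 7.84e-05). Its TPM went from 147 ± 23.6 to 326 ± 44.0 in WT and from 135 ± 26.2 to 333 ± 41.0 in KO. Nfe2l1, the transcription factor that restores proteasome genes after proteasome inhibition, rose in WT (0.66, SE 0.162, edgeR adjusted p = 0.00849). In KO it stood at 196, 242 and 176 CPM untreated and 181, 258 and 222 CPM after IFN, which overlapped (0.11, adjusted p = 0.705), and the responses did not pass the test of their difference (-0.55, adjusted p = 0.92). The ubiquitin-activating enzyme Uba1 rose in both (0.43 and 0.38), AI314180 (Ecpas, a proteasome adaptor) in WT (0.30), and the ubiquitin gene Ubb (0.63) in KO. The genes that fell were the shuttle factor Ubqln2 in WT (-0.44) and the enzyme Uba6 in KO (-0.52).

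After IL4 few proteasome genes passed the test, while most count-based estimates were small and above 0. In WT 1 of 46 rose, against 8.49% of all genes called in either direction and 4.96% called higher, and in KO 3 of 46 rose, against 9.48% called and 5.35% called higher. The shares of these genes, 1 and 3 of 46, are near or below that background. Without untreated KO library 3 the KO count was 7, the added genes being Psma3, Psma4, Psmb2 and Psmd14, and without WT IL4 library 7 the WT count was 2, with Psma4. Without untreated WT library 1 the testis subunit Psma8, at no more than 3.71 CPM, was called lower in WT (-1.11, edgeR adjusted p = 0.0489). The median log2 fold change was 0.13 in WT, with 35 of 46 above 0, and 0.27 in KO, with 45 of 46 above 0, against -0.01 and 0.01 over all genes. On log2(TPM + 1) the median was -0.01 in WT and 0.06 in KO, where those of all genes were -0.11 and -0.16. Dendritic cell markers moved with IL4, with 2 of 3 tested called higher in each genotype and sums of 107, 28.9 and 32.8 CPM untreated and 712, 976 and 607 CPM after IL4 in WT, and their part in the result was not tested. The IL4 and IFN comparisons share their untreated libraries. Psmd8 was called in both genotypes. It stood at 314, 334 and 325 CPM after IL4 in WT, against 227, 219 and 223 untreated, and at 307, 329 and 321 CPM in KO, against 199, 179.9 and 207. The groups did not overlap, and the spread within each group was small. Psmd8 rose by 0.54 in WT (SE 0.107, edgeR adjusted p = 0.00414) and 0.71 in KO (SE 0.107, adjusted p = 0.000529), under all 14 alternative settings.

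The other calls after IL4 were in KO. Psma7 rose by 0.57 (SE 0.126, edgeR adjusted p = 0.00841), from 79.0, 83.8 and 86.9 to 118, 118 and 136 CPM. Psmb6, the caspase-like subunit, rose by 0.75 (SE 0.204, adjusted p = 0.0286), from 80.9, 77.4 and 102 to 105, 164 and 169 CPM, and this call was lost in 7 of 14 alternative settings, among them without untreated KO library 1 or 2 and without KO IL4 library 8 or 9. In WT Psmb6 went from 101, 111 and 113 to 140.2, 184 and 171 CPM, groups that did not overlap, without passing the test (0.61, edgeR adjusted p = 0.0823). The Psmb6 transcript was the highest of the core at 404 ± 26.5 TPM after IL4 in WT, and the ratio of the highest to the lowest core gene was 3.23 there and 3.05 in KO. Psmb9, its inducible counterpart, made up 10.1, 8.49 and 12.8% of the pair after IL4 in WT, all below the untreated libraries, and 14.1, 10.2 and 10.5% in KO, which overlapped the untreated ones. Psmb10 was the 1 gene of the 32 tested in the pathway list that IL4 raised, where 4.96% of all genes in WT and 5.35% in KO were called higher. It rose by 1.07 in WT (SE 0.218, edgeR adjusted p = 0.00536) and 1.35 in KO (SE 0.22, adjusted p = 0.001). Its share of the pair with Psmb7 reached 59.8, 56.1 and 66.4% in WT. Psme1 and Psme2 were not called after IL4, at 0.21 and 0.20 in WT and 0.42 and 0.41 in KO. The values of Psme3 were 0.32 and 0.31, those of Psme4 0.16 and 0.21, and those of Psmf1 -0.08 and 0.03. Those of Psmb5 were 0.14 and 0.18, and those of Psmb7 0.13 and 0.07.

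Without treatment, no proteasome gene passed the test between the KO and WT groups in the fit without a replicate block. By edgeR 0 of 46 were called, against 0.0799% of all genes, and DESeq2 called 0. The targeted gene Rpl13a was not called by edgeR either. Of the 46, 6 had an unadjusted p under 0.05, all lower in KO, against 944 of all 12514 genes, 565 of them lower. The estimates leaned to lower levels in KO: the median was -0.20, 9 of 46 were above 0, and none of the 14 core genes was (core median -0.33, 19S median -0.12, all genes 0.01). On log2(TPM + 1) the median of the 46 genes was -0.01 and that of all genes 0.15, so that the 46 genes stood at -0.16 relative to all genes and the core at -0.30, against -0.20 and -0.33 with counts. The KO libraries all stood below the WT libraries for 4 of 46 genes, near the 7.66% of all genes. The lowest p was that of Psmb2, at 86.2, 116 and 119 CPM in WT and 59.9, 72.4 and 88.2 CPM in KO, which overlapped (-0.54, SE 0.167, edgeR adjusted p = 0.377). Psma7 followed (-0.38, adjusted p = 0.41), with groups that did not overlap, and then Psmg4 (-0.50, adjusted p = 0.569), whose groups did not overlap either. With same-numbered libraries as blocks, Psmb2 passed (-0.55, SE 0.0978, edgeR adjusted p = 0.0382), where 96 of all genes were called. The same-numbered libraries 2 did not deviate together (r 0.0725). Of the regulators, Psme1 had -0.36, Psme2 -0.36, Psme3 0.03, Psme4 0.14 and Psmf1 -0.11. Of the catalytic subunits, Psmb5 had -0.18, Psmb6 -0.32 and Psmb7 -0.08.

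Within each genotype, the untreated library with the lowest core level also had the lowest 19S level and the lowest markers of dividing cells. The median log2 deviation of the 14 core genes from their mean over all libraries was -0.38, -0.01 and -0.06 in untreated WT and -0.64, -0.57 and -0.10 in untreated KO. That of the 17 genes of 19S was -0.25, -0.03 and -0.01 in WT and -0.44, -0.17 and 0.02 in KO. The summed CPM of 9 markers of dividing cells was 1161, 1512 and 1480.1 in WT and 528, 967 and 1649 in KO. In both genotypes library 1 was lowest by each of these measures, and KO library 3 was the highest of its group. Rpl13a was also lowest in library 1, at 617, 745 and 746 CPM in untreated WT and 156, 201 and 401 CPM in untreated KO. Library 1 was also the only untreated WT library with Y-linked transcripts. Between genotypes the order differed: KO library 3 had the highest marker sum, but a core value below those of WT libraries 2 and 3. The KO libraries after IFN did not follow the pattern: library 4 had the lowest marker sum (785 CPM) and library 5 the lowest core value (0.26). None of the 9 markers was called between KO and WT. Summed fibroblast markers stood at 681, 700.2 and 688 CPM in untreated WT and 194, 84.7 and 309 CPM in untreated KO, which did not overlap, with none of 8 tested markers called. Of 4 tested bone-forming markers 2 were called lower in untreated KO, with sums of 20.3, 54.8 and 46.0 CPM in WT and 20.9, 20.2 and 19.3 CPM in KO. The part of these markers, of the Rpl13a level and of the Y-linked difference in the result was not tested.

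**Figure D4:**
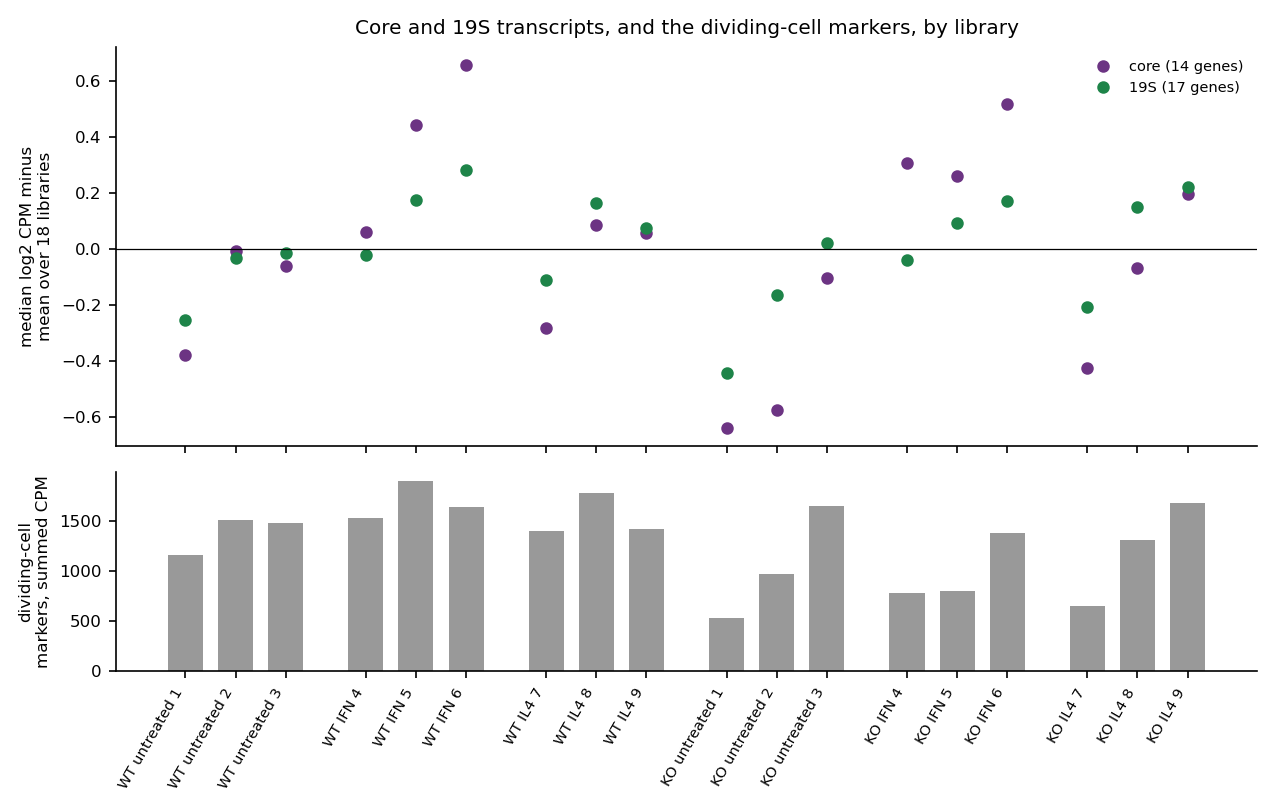
Median log2 CPM of the 14 core genes and of the 17 genes of 19S in each library, as the difference from the gene's mean over 18 libraries (points), with the summed CPM of 9 markers of dividing cells (bars). In each genotype's untreated group library 1 has the lowest core value, -0.38 in WT and -0.64 in KO, and the fewest marker counts.

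Which library of a group was lowest was shared across the proteasome genes. WT library 1 was the lowest of its group for 42 of 46 genes, against 41.8% of all genes tested. Library 7 was the lowest of the IL4 group for 37 of 46 in WT and 43 of 46 in KO, against 37.7% and 37.9% of all genes. KO library 1 was lowest for 38 of 46 and KO library 3 highest for 41 of 46, against 36.3% and 37.6% of all genes. Library 4 was the lowest of the IFN group for 38 of 46 in WT and 29 of 46 in KO, against 36.8% and 37.6%. The genes of a group therefore varied together, and the count of calls is not a count of independent observations.

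After treatment, the genotypes did not differ in these genes by the test. The targeted gene Rpl13a was not called by edgeR after either treatment. After IFN edgeR called 0 of 46, against 0.0639% of all genes, and DESeq2 called 0. Of the 46, 1 had an unadjusted p under 0.05, against 724 of all 12514 genes. That gene was Psmc3ip (-1.25, adjusted p = 0.747), followed by Psmd1 (-0.22, adjusted p = 0.902) and Psmg4 (0.33, adjusted p = 0.909). The KO libraries all stood below the WT ones for 2 of 46 genes, against 5.71% of all genes, and the median difference was -0.03. With a Y-linked covariate this median was -0.19. Psme1 differed by 0.23 (95% interval -0.13 to 0.58) and Psme2 by 0.32 (-0.20 to 0.85), intervals that include 0. Psme3 differed by -0.04, Psme4 by 0.06 and Psmf1 by -0.06. Psmb5 differed by -0.09, Psmb6 by -0.01 and Psmb7 by -0.20.

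After IL4 edgeR called 0 of 46, against 0.0639% of all genes, and DESeq2 called 0. None of the 46 had an unadjusted p under 0.05, against 308 of all 12514 genes. The lowest p values were those of Psme4 (0.18), Psmd5 (0.16) and the base chaperone Psmd9 (-0.16), each with an edgeR adjusted p of 1. The KO libraries all stood below the WT ones for 1 of 46 genes, against 2.73% of all genes, and the median was -0.02. With a Y-linked covariate this median was -0.14. Psme1 had -0.15, Psme2 -0.15, Psme3 0.01 and Psmf1 0.00. Psmb5 had -0.14, Psmb6 -0.17 and Psmb7 -0.14.

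The IFN responses of KO and WT did not differ by the test of the difference itself. By edgeR 0 of 46 genes and 0% of all genes were called, and DESeq2 called 0. Of the 46, 4 had an unadjusted p under 0.05, all with the larger response in KO. Of all 12514 genes 617 had such a p, and for 427 of them the difference, KO minus WT, was above 0. Psmg4 had the lowest p (0.83, SE 0.283, edgeR adjusted p = 0.775), then Psma7 (0.48, SE 0.177, adjusted p = 0.852) and Psme1 (0.58, SE 0.256, adjusted p = 0.979). Psme2 had 0.68 (95% interval -0.06 to 1.43), and Psme3 had -0.07 (-0.48 to 0.34). The core genes had a median difference of 0.37, with 13 of 14 above 0, and the 19S genes 0.04. On log2(TPM + 1) these medians were 0.11 and -0.27, where the median of all genes was -0.24. The core median of KO minus WT was 0.01 after IFN and -0.33 without treatment.

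The IL4 responses did not pass either. By edgeR 0 of 46 genes and 0% of all genes were called, and DESeq2 called 0 of the 46. Of the 46, 1 had an unadjusted p under 0.05, with a difference, KO minus WT, above 0. Of all 12514 genes, 175 had such a p with a difference above 0 and 74 with a difference below 0. The lowest p values were those of Psma7 (0.41, SE 0.178), Psmg4 (0.60, SE 0.287) and Psmb2 (0.41, SE 0.236), each with an edgeR adjusted p of 1. The median difference was 0.20 over the 46 genes.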

How the data were processed

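Poly-A RNA of 18 libraries in 6 groups of 3 was analysed, from the gene table of expected counts and the table of TPM that the authors deposited. Per the submitters' processing notes, reads were processed with Bowtie 0.12.8 and RSEM 1.2.3 and the build was mm10. The labels' protocol allows a directional or a non-directional library, so the strand setting is not known. The deposited table of median-normalized values was not used. Of the deposited expected counts 21.5% were not whole, since RSEM shares reads among genes, and they were rounded. All 18 libraries were fitted in R 4.3.3 with edgeR 4.0.16 (TMM, filterByExpr, robust quasi-likelihood test, one coefficient per group, 9 contrasts), which tested 12514 genes. Genes were called at a Benjamini-Hochberg adjusted p under 0.05 over all genes tested, and 95% intervals are the estimate ± 1.96 SE. CPM are scaled by TMM. The test was checked on simulated counts. Alternatives were DESeq2 1.42.0, limma 3.58.1 on log2(TPM + 1) and log2(TPM + 0.1), edgeR with RLE, without a filter, with a Y-linked covariate, on the compared libraries alone, without each library, with a replicate block and, added after seeing the data, with the legacy quasi-likelihood. Fold changes on log2(TPM + pseudocount) understate those of low genes.

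Named in each comparison are the up to 10 members with the lowest p among those called, or the 3 with the lowest p where none was called, and always Psme1, Psme2, Psme3, Psme4, Psmf1, Psmb5, Psmb6 and Psmb7. Others were named after their values were seen, and some genes of the marker and pathway lists are not reported here. The members, classes and lists were chosen with earlier results of these data known. Replicate numbers run from 1 to 9 in each genotype. The numbers were taken to pair WT and KO where all same-numbered libraries deviated together with r over 0.1. That held after IL4 (r of 0.702, 0.561 and 0.475 over 9712 genes). It failed without treatment (0.746, 0.0725 and 0.573) and after IFN (0.371, 0.0356 and 0.265), in each through 1 pair. Coordinates and shared 50-base stretches are from the GENCODE annotation of GRCm38, the assembly of mm10. Promoters are from RefSeq on GRCm38.p6.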

Additional observations from a re-analysis of the deposited data

How the results depend on the processing

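After IFN the number of members called was 12 in WT and 16 in KO, all higher, and no alternative moved the total by 1.5 times. In KO limma on TPM called 11 higher and 2 lower with a pseudocount of 1, and 10 higher and 2 lower with 0.1. Leaving out 1 library gave 9 (without WT IFN library 5) to 13 (without WT IFN library 4) in WT and 12 (without KO IFN library 5) to 19 (without untreated KO library 3) in KO. After IL4 the counts of 1 in WT and 3 in KO depended on the setting. With a Y-linked covariate they were 3 and 6, with the compared libraries alone 2 and 1, and DESeq2 called 5 and limma on log2(TPM + 0.1) called 1 in KO. Leaving out 1 library gave 1 to 2 in WT (2 without untreated WT library 1, of which 1 was lower, or without WT IL4 library 7) and 2 to 7 in KO (7 without untreated KO library 3). The cause was not tested. The 3 genotype comparisons and both differences of responses gave 0 calls when any 1 library was left out, 0 to 0 in each.

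With a replicate block, 1 member was lower in untreated KO than in WT (Psmb2, -0.55, SE 0.0978, edgeR adjusted p = 0.0382). The numbers did not pair those libraries by the rule of r over 0.1, through library 2 alone (0.746, 0.0725 and 0.573). Over all genes the block called 96 there, against 10 without it. The block changed no other count of members, those after IL4, where the numbers pair the libraries, included.

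Of 32 called results for single genes, 395 of 448 alternative values stayed past the threshold, 53 did not and 0 reversed. The calls lost most often were Psmb3 in KO (9 of 14 settings), Psmg4 in WT (8) and Psmb6 after IL4 in KO (7). Of 143 alternative medians over the members 8 moved by more than 0.181, the spread between replicates, all 8 on TPM. The median after IFN in KO was -0.02 there, and the median of the difference of IFN responses -0.13. With 3 libraries a group the 95% intervals were wide: that of Psmb5 after IFN in WT ran from -0.46 to 0.57, and a change within it was not detectable.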
